A study of Mus musculus with 80 samples.

Results

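Trophoblast transcription factors and simple epithelial keratins were followed as 1 set of 10 genes through the RNA libraries of a mouse embryonic stem (ES) cell series. The set holds 6 transcription factor genes (Cdx2, Eomes, Elf5, Tfap2c, Hand1 and Gata3) and 4 keratin genes (Krt8, Krt18, Krt19 and Krt7), out of 37890 genes listed in at least 1 of the 12 expression tables. They were chosen by name, with entries of the same symbol summed within a table. Under their own symbols 8 of the 10 were listed in all 12 tables. Cdx2 was not listed in 1 table, and Gata3 in 2 tables stood only in an entry joined with 9230102O04Rik.

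The lines lack or carry SALL4 and SALL1, zinc finger transcription factors. The Sall4 series compared Sall4flox/- cells (Sall4 het), Sall4 delta/- cells (Sall4 KO) and Sall4 KO cells transfected with a mutant Sall4A (KO plus mutant), with 2 libraries each, and Sall4 KO cells transfected with WT SALL4A (KO plus WT), with 1 library. So all of these lines already lack 1 intact Sall4 allele, the het controls included. Single libraries came from Sall1-/-/Sall4-/- double knockout cells (DKO), from the wild-type cells for that DKO, from Sall1flox/- (Sall1 het) and Sall1 delta/- (Sall1 KO) cells, and from wild-type TT2 cells. Replicate 1 and the single libraries of mutant lines and of the DKO control are labelled C57BL/6J, replicate 2 is labelled 129P2/OlaHsd, line E14.1, and TT2 is labelled (C57BL/6NCrlj x CBA/JNCrlj)F1. The mutant of replicate 2 is labelled as a Flag-SALL4A-MUT transgene. The sources used here give neither its promoter nor whether a line is 1 clone. The labels' growth protocol describes TT2 cells kept on gelatin without feeder cells, with leukaemia inhibitory factor.

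In the embryo the trophoblast is the outer lineage of the blastocyst, which forms the placenta. CDX2, EOMES, ELF5, TFAP2C and GATA3 are transcription factors that specify it or maintain its stem cells, and HAND1 acts in its giant cells and in extraembryonic and cardiac mesoderm. Keratins form intermediate filaments only as pairs of a type I chain (Krt18 and Krt19 here) with a type II chain (Krt8 and Krt7), and the pair of KRT8 and KRT18 is the first keratin network of the embryo. ES cells, which derive from the inner cell mass, ordinarily make little trophoblast.

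Values are the deposited FPKM (fragments per kilobase of transcript and mapped total) in 9 tables and RPKM (the same per reads) in 3, which are the replicate 2 libraries. Read totals are unknown, so no counting error can be given, and levels outside the 3 limma comparisons given further on were set side by side without a test. The 10 ES cell markers checked summed to between 3425 and 7113 in each library, with Pou5f1 between 453 and 1703, and none of those listed was at 0. Of the markers of differentiated trophoblast, Tpbpa and Prl3d1 were at 0 in each of the 9 libraries that list them. Others of that list were present, with Phlda2 between 4.65 and 133, Peg10 up to 122, Plac8 up to 55.8 and Synb up to 24.4, and the list summed to between 16.3 and 213. The visceral endoderm gene Ttr was at 0 in those same 9 libraries and Afp did not exceed 0.0237, while the endoderm list summed to between 15.1 and 79.6. Sall4 RNA stood at 358 and 218 in the libraries labelled Sall4 KO against 196 and 64.2 in those labelled het, and at 109 against 17.6 for the DKO and its control. With SALL4A added back it stood below the KO libraries, at 77.4 and 161 with the mutant and 97.4 with WT. These Sall4 values go against the labels, whereas Sall1 RNA, at 2.27 in the DKO and 13.9 in its control, lay in the direction of the label. Since the deleted exons are not given, a whole-gene value checks no label, and directions are given between the libraries as they are labelled. The labels do not tell whether libraries of 1 group are separate cultures, and a p-value here therefore covers only the spread between the libraries at hand, which may be technical. These are bulk libraries, in which more cells of a type and more RNA per cell cannot be told apart.

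**Figure D1:**
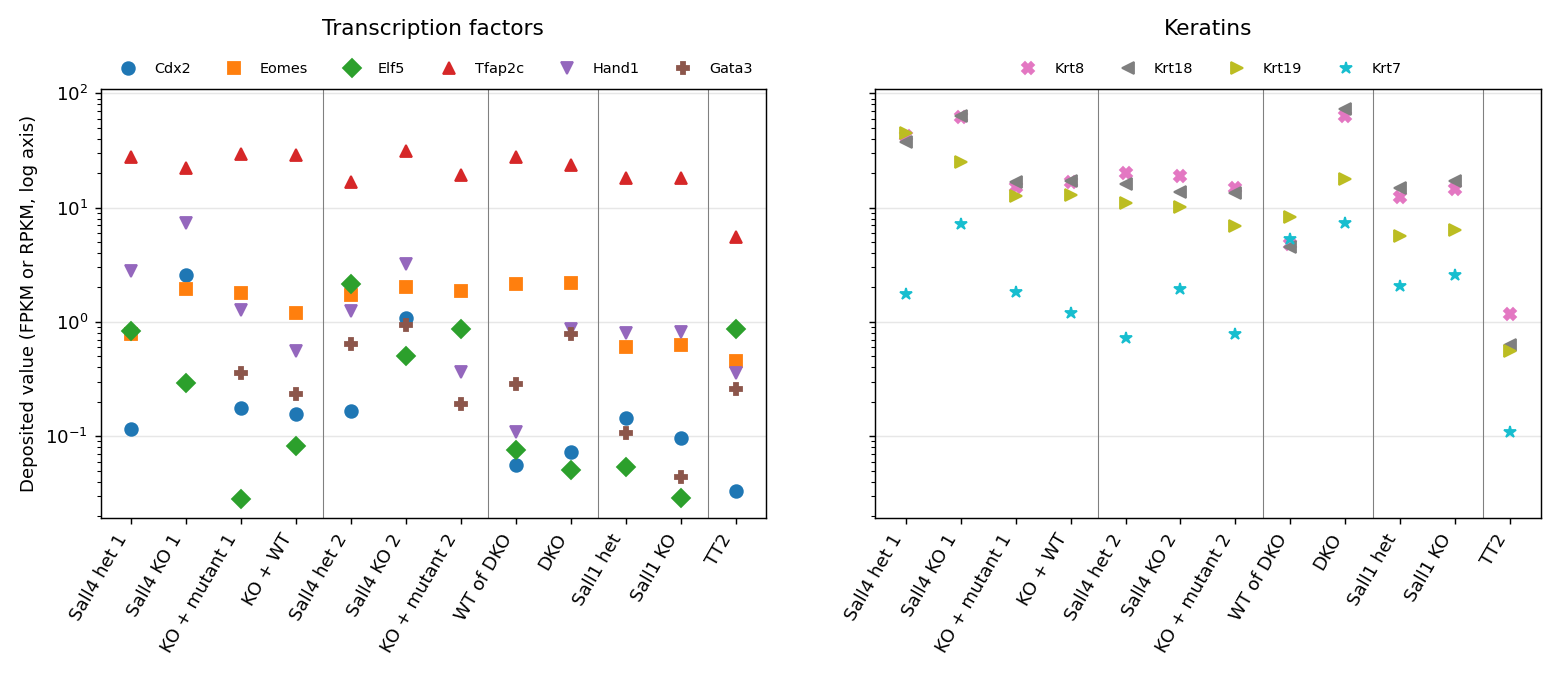
Deposited value of each gene in each of the 12 libraries (FPKM or RPKM, log axis), factors on the left and keratins on the right; 1 point is 1 library, and vertical lines part the sets of libraries. Tfap2c stays between 16.7 and 31.3 outside TT2, whereas Krt8 and Krt18 range from 4.79 and 4.49 in the DKO control to 63.9 and 73.2 in the DKO.

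The set divided into an abundant and a low part (the plot of deposited values by library). Tfap2c, Krt8, Krt18 and Krt19 reached 5 or more in at least 10 of the 12 libraries. Krt7 did so in 3 and Hand1 in 1. Cdx2, Eomes, Elf5 and Gata3 were below 5 in every library that lists them under those symbols. By their medians over the libraries that list them, the order was Tfap2c (22.9), Krt18 (16.4), Krt8 (15.9), Krt19 (10.6), Krt7 (1.88), Eomes (1.75), Hand1 (0.841), Gata3 (0.271), Elf5 (0.188) and Cdx2 (0.144). The ranges of neighbours in that order overlapped throughout, and the widest step in the medians was that from Krt19 to Krt7. The FPKM and RPKM scales are per length, which allows genes to be compared. These levels were not brought to a common scale between libraries. Lmnb1 and Cdh1 were also lowest in TT2, at 19.0 and 12.6, while Pou5f1 was highest there at 1703. A low deposited value in TT2 therefore cannot be told apart from the scale of its table.

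Cdx2 (mm9 chr5:148112380-148118846), a homeobox factor at the head of the trophoblast programme, was close to 0 in all but the libraries labelled Sall4 KO. It stood at 2.58 and 1.09 in those, against 0.116 and 0.167 in Sall4 het. Both KO libraries therefore lay above both het libraries, at 22.3 times het in replicate 1 and 6.54 times in replicate 2 by the deposited values. With SALL4A added back it was 0.175 in KO plus mutant replicate 1 and 0.157 in KO plus WT. It is missing from the list of genes in KO plus mutant replicate 2. Elsewhere it was 0.0558 in the DKO control, 0.0726 in the DKO, 0.144 in Sall1 het, 0.0970 in Sall1 KO and 0.0333 in TT2. The DKO, which is also labelled as lacking SALL4, was thus at the level of the other lines.

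Eomes (chr9:118387329-118395250), a T-box factor of trophoblast stem cells and of the primitive streak, was low in all libraries. It was 0.786 and 1.71 in Sall4 het, 1.94 and 2.04 in the KO libraries, 1.79 and 1.85 with the mutant, and 1.20 with WT SALL4A. Its highest values were 2.14 in the DKO control and 2.20 in the DKO, which did not stand apart from one another. Sall1 het and Sall1 KO, at 0.603 and 0.629, and TT2, at 0.456, were the lowest.

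Elf5 (chr2:103251844-103291146), an ETS factor that maintains trophoblast stem cells, ran the other way in the Sall4 pairs. It was 0.838 and 2.15 in Sall4 het and 0.294 and 0.502 in Sall4 KO, so both KO libraries lay below both het libraries. With the mutant it was 0.0284 and 0.859, and with WT SALL4A 0.0816. In the DKO, its control and both Sall1 lines it did not exceed 0.0756, while TT2 stood at 0.871, of which 94.98% came from 1 annotated transcript. The Elf5 entry begins at 103252254 in those lines, in KO plus WT and in KO plus mutant replicate 1, and none of these exceeded 0.0816. Where it begins at 103251844, in the other Sall4 libraries, values ran from 0.294 to 2.15. Between these 2 sets, line and type of table cannot be told apart for Elf5.

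Tfap2c (chr2:172375092-172384122), an AP-2 factor used by trophoblast, germ cells and naive ES cells, stayed between 16.7 and 31.3 outside TT2. It was 27.5 and 16.7 in Sall4 het, 22.4 and 31.3 in the KO libraries, 29.3 and 19.4 with the mutant, and 28.6 with WT SALL4A. The het and KO values overlapped, and the pairs of replicates went opposite ways. The DKO was at 23.5 and its control at 27.5, Sall1 KO at 18.1 and Sall1 het at 18.2. TT2 was lowest at 5.53, split over 2 transcripts at 3.44 and 2.09. By percentile among the genes listed in a library it was not lowest, at 71.5 against 67.5 in Sall4 het replicate 2. Krt8 in TT2 was lowest by percentile as well, at 50.7. Percentiles depend on the genes a library lists. In Sall4 het replicate 2, 260 of 19049 entries were at 0, and in TT2 5709 of 47834.

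Hand1 (chr11:57642206-57646320), a helix-loop-helix factor, was 2.77 and 1.25 in Sall4 het and 7.33 and 3.23 in Sall4 KO. Each KO library lay above both het libraries, at 2.65 and 2.59 times its own het partner. In KO plus mutant it was 1.26 and 0.364, and in KO plus WT it was 0.559, so the 3 add-back libraries lay below both KO libraries. It was 0.869 in the DKO against 0.108 in the control, 0.805 and 0.813 in Sall1 het and Sall1 KO, and 0.356 in TT2.

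Gata3 (chr2:9778704-9800227), a zinc finger factor of the trophoblast and of T cells, stayed below 1 wherever it was listed under its own symbol. In the replicate 2 tables its entry spans chr2:9778704-9811661, the bounds of the entry joined with 9230102O04Rik. Those values may therefore cover both genes. It was 0.647 in Sall4 het replicate 2, 0.940 in Sall4 KO replicate 2, 0.355 and 0.189 with the mutant and 0.232 with WT SALL4A. The DKO, at 0.781, was above its control at 0.283, and Sall1 het and Sall1 KO were at 0.106 and 0.0441, with TT2 at 0.259. In replicate 1 of het and KO the joined entry with 9230102O04Rik was 0.818 and 5.07, and how much of that is Gata3 cannot be told from the table.

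Krt8 (chr15:101827141-101834773, type II) and Krt18 (chr15:101858646-101862457, type I) lie 23872 bases apart, while Krt7 (chr15:101241473-101260744) is 566396 bases from Krt8 and Krt19 (chr11:100002123-100009979) is on chromosome 11. Krt8 was 42.5 and 20.1 in Sall4 het, 62.0 and 19.0 in the KO libraries, 15.0 and 14.7 with the mutant and 16.8 with WT SALL4A. Krt18 was 37.3 and 16.0, 63.2 and 13.6, 16.8 and 13.4, and 17.1 in the same libraries. For both genes the het and KO values overlapped, since replicate 1 was high in either genotype. In the DKO they stood at 63.9 and 73.2 against 4.79 and 4.49 in its control. Sall1 het and Sall1 KO differed little, at 12.4 and 14.7 for Krt8 and at 14.7 and 17.2 for Krt18. TT2 was lowest, at 1.17 and 0.630.

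Across this range the ratio of the 2 chains varied less than that of Krt19 or Krt7 to Krt8. The Krt18 to Krt8 ratio of deposited values ran from 0.538 in TT2 to 1.18 in Sall1 het, while the Krt19 to Krt8 ratio ran from 0.279 in the DKO to 1.71 in its control. That of Krt7 to Krt8 ran from 0.0357 in Sall4 het replicate 2 to 1.11 in the DKO control. RefSeq also names Krt8 pseudogenes, and reads shared with such copies could not be told apart here.

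**Figure D2:**
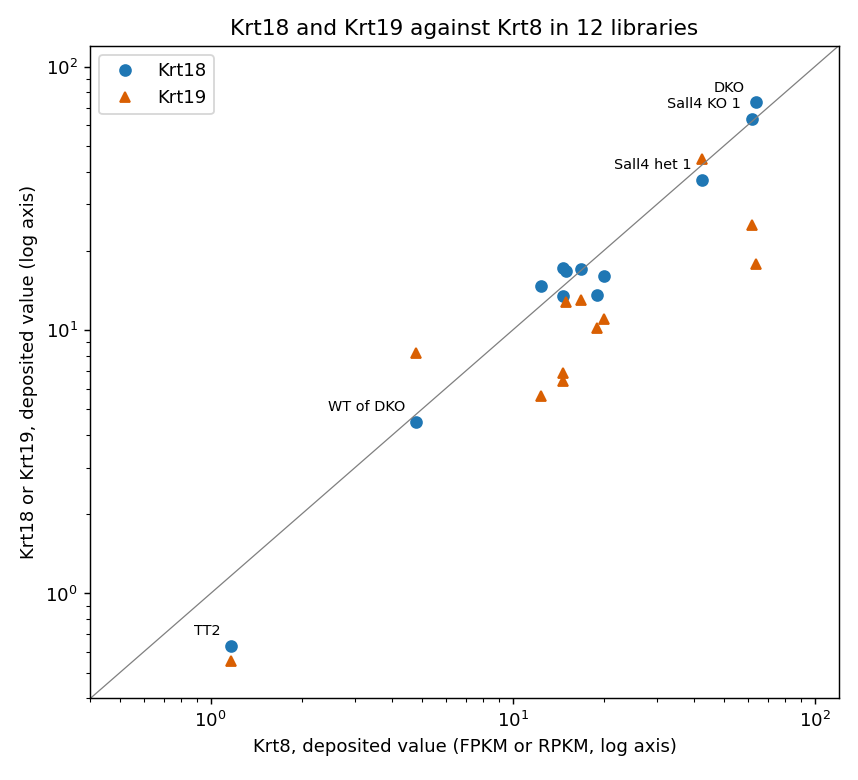
Krt18 (circles) and Krt19 (triangles) on the y axis against Krt8 on the x axis, deposited FPKM or RPKM on log axes; each point is 1 of the 12 libraries and the line marks equal values. The Krt18 points run along the line, with TT2 furthest from it (ratio 0.538). The Krt19 points lie furthest below the line in the DKO (ratio 0.279) and furthest above it in the DKO control (1.71).

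Krt19, a type I chain without the usual tail domain, was 44.7 and 11.02 in Sall4 het, 25.2 and 10.2 in the KO libraries, 12.7 and 6.90 with the mutant and 13.0 with WT SALL4A. Replicate 1 of het was its highest library, and the het and KO values overlapped. It was 17.8 in the DKO against 8.22 in the control, 5.64 and 6.40 in Sall1 het and KO, and 0.553 in TT2.

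Krt7, the type II chain typical of ducts and trophoblast, was 1.76 and 0.718 in Sall4 het and 7.12 and 1.92 in Sall4 KO. Both KO libraries lay above both het libraries, at 4.05 times het in replicate 1 and 2.68 times in replicate 2. With the mutant it was 1.83 and 0.778 and with WT SALL4A 1.20, all below the KO libraries as deposited, although the mutant and KO libraries overlapped once scaled. The DKO and its control were both high, at 7.39 and 5.31, Sall1 KO and het were at 2.57 and 2.04, and TT2 was lowest at 0.109.

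Over the 11 libraries other than TT2, which share tables and units in part, log2 levels of Krt8 and Krt18 correlated at 0.977 (Pearson) and 0.745 (Spearman). Values were 0.729 and 0.873 for Krt8 with Krt19, and 0.318 and 0.055 for Krt8 with Krt7. Among 7994 genes compared in the same way, Krt18 was the gene most like Krt8, followed by Il17d (0.870), Il3ra (0.818), Dusp22 (0.798) and Rnf128 (0.792). Genes most like Krt7 were Sh3bp4 (0.956), Trim35 (0.952), Anxa5 (0.950), Wls (0.949) and Wwtr1 (0.949), and those most like Krt19 were Smarcd2 (0.938), Spag9 (0.937), Slc45a4 (0.901), Pknox1 (0.895) and Plcd3 (0.883). For Hand1 they were Greb1l (0.939), Bcar1 (0.939), Mycbp2 (0.929), Tiparp (0.926) and Pdlim2 (0.923), and for Tfap2c Sgol2 (0.883), Pla2g15 (0.880), Kank2 (0.870), Sema4b (0.869) and Fam113b (0.863). With a few high libraries setting these values, they describe the 11 libraries only.

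Krt7 moved with Krt8 and Krt18 in some pairs of libraries and not in others. Its log2 ratio was -1.71 beside -1.596 and -1.597 in KO plus WT over KO. In KO over het of replicate 2 it was 0.73 beside -0.13 and -0.27. The 250 bases before the start of Krt8, Krt18 and Krt7 are shown as a description, from RefSeq on GRCm38.p6, 5′ to 3′ on the gene's strand. Capitals mark matches on either strand to the TFAP2 core GCCNNNGGC (in Krt18 and Krt7) or the GATA core AGATAA (in Krt8). The windows are chr15:102004343-102004592 on the minus strand for Krt8, chr15:102027966-102028215 on the plus strand for Krt18 and chr15:101412153-101412402 on the plus strand for Krt7.
Krt8: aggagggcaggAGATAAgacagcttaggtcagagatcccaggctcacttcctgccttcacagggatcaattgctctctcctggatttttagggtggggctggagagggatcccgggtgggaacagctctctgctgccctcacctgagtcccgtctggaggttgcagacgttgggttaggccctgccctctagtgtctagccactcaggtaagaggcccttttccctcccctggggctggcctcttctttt
Krt18: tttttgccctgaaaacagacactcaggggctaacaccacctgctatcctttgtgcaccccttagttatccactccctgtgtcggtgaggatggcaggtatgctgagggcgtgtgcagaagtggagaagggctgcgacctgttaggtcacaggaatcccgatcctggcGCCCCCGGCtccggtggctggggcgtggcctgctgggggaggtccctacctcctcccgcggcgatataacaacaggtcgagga
Krt7: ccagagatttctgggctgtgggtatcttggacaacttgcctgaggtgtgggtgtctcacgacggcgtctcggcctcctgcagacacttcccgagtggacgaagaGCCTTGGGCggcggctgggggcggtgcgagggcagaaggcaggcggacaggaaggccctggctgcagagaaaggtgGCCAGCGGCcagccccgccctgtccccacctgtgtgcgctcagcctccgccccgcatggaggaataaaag
The Krt8 window held 3 CG dinucleotides, that of Krt18 held 12 and that of Krt7 held 16, against a median of 6 over 32851 promoters. The Krt8 match to the GATA core began 239 bases before the start. The TFAP2 core matched 83 bases before the start of Krt18, and 146 and 70 bases before that of Krt7. Over all promoters of the same length 13.7% held the TFAP2 core and 9.99% the GATA core. Neither the TEAD core GGAATG, held by 12.6%, nor the AP-1 core TGANTCA, held by 6.75%, was in these 3 windows. Of the other members with an entry, Gata3 held 3 TFAP2 matches and Cdx2 held 1, 1 of the 2 Elf5 windows held a TEAD match, and Eomes held none of the 4 motifs. The matches shown do not overlap one another. A match is a description of the letters and shows no binding.

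Loss of SALL4 was asked about first, by comparing both Sall4 KO with both Sall4 het libraries. Krt7 and Hand1 were higher in KO in both replicates, but no gene passed the test. In limma on log2(scaled value + 1), with a term for replicate number, 0 of 15094 genes (0%) had an adjusted p under 0.05, the smallest being 0.237. At an unadjusted p under 0.05 there were 570 genes higher (3.78%) and 687 lower (4.55%). Of the 10 members 8 passed the filter of 1 or more in at least 2 of the 6 libraries, Cdx2 through the KO libraries alone. Elf5 and Gata3 did not pass it.

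The log2 change of Cdx2 was 1.20 ± 0.33 (SE, n = 2 per group), with a limma adjusted p of 0.536, from 5 libraries because KO plus mutant replicate 2 gives no value for it. For Krt7 it was 1.12 ± 0.30 (SE, n = 2 per group; limma adjusted p of 0.495), and for Hand1 0.99 ± 0.22 (SE, n = 2 per group; limma adjusted p of 0.463). Krt7 and Hand1 had an unadjusted p under 0.05. Eomes was higher by 0.40 ± 0.25 (limma adjusted p of 0.743). On the scaled values Eomes, Hand1 and Krt7 were higher in both KO libraries than in both het libraries, as were 16.5% of all genes tested, and 16.2% were lower in both. Cdx2 was higher in both as well, but it had to be, having entered the test through the KO libraries. Elf5, which the filter left out, differed by -0.78 ± 0.23 when all genes were fitted (limma adjusted p of 0.393 over 13107 genes).

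Krt8 differed by 0.19 ± 0.46 (95% interval -1.02 to 1.41), Krt18 by 0.23 ± 0.50 (-1.09 to 1.55), Krt19 by -0.49 ± 0.33 (-1.35 to 0.38) and Tfap2c by 0.25 ± 0.33 (-0.62 to 1.13), with limma adjusted p of 0.968, 0.965, 0.769 and 0.911. All 4 intervals span 0. Without Sall4 KO replicate 1 the changes of Krt8 and Krt18 were -0.43 and -0.53, and that of Tfap2c was -0.016 without replicate 2 of het and -0.23 without replicate 2 of KO.

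**Figure D3:**
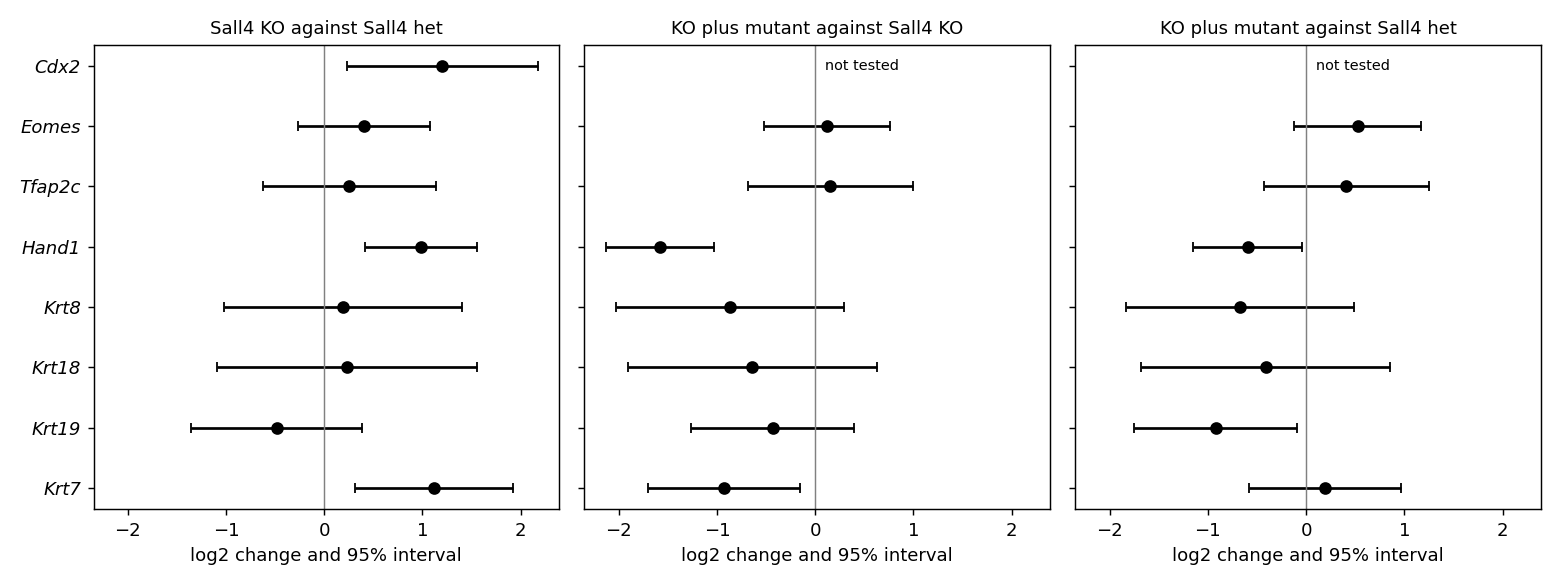
Log2 change (limma, log2(scaled value + 1) scale) of each tested gene of the set in the 3 comparisons of the Sall4 libraries; points are estimates and bars the 95% intervals from 2 libraries per group. Hand1 is at 0.99 in KO against het and at -1.58 in KO plus mutant against KO, where it lies lowest, and no adjusted p is under 0.05.

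Taken replicate by replicate, as single pairs without a test, 2 of the 6 members at 5 or more were at least 2-fold higher in KO over het of replicate 1, Krt7 at a log2 ratio of 1.57 and Hand1 at 1.15. Among all genes at that level 4.07% were, and 4.51% were 2-fold lower. With 5 added in place of 1 neither passed, at 0.85 and 0.67. In replicate 2 none of the 4 members at 5 or more passed 2-fold either way, against 5.74% of genes higher and 7.8% lower. There Hand1 (0.87), Cdx2 (0.82) and Krt7 (0.73), which did not reach a level of 5, kept their sign. Krt8 and Krt18 were at 0.55 and 0.76 in replicate 1 and at -0.13 and -0.27 in replicate 2.

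Other regulators of trophoblast were mostly higher in KO, without a call. Of 14 listed, 11 were tested, 9 higher and 2 lower in KO, with a median log2 change of 0.33 beside -0.015 over all genes tested. On scaled values 4 of the 11 were higher in both KO libraries than in both het libraries, beside 16.5% of all genes. Lower in both were 2, beside 16.2%. Tfap2a, among the 9, entered the test through the KO libraries alone, so its direction was fixed beforehand. Of the 4 most abundant, Id2, which binds and blocks helix-loop-helix factors, stood at 49.1 and 41.2 in KO and at 12.6 and 16.2 in het. Klf5 and Yap1 differed by 0.39 ± 0.27 and 0.30 ± 0.24 and Bmp4, the ligand used to turn stem cells toward trophoblast, by 0.33 ± 0.25, with limma adjusted p from 0.782 to 0.816. Outside the naming rule and chosen after its values were seen, Tfap2a, the AP-2 relative of Tfap2c, was 1.57 and 1.21 against 0.343 and 0.230.

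Of 13 genes of differentiated trophoblast and placenta 4 were tested, and all 4 were estimated lower in KO, with none called and a median of -1.60. Phlda2, an imprinted placental growth regulator, was 11.4 and 14.7 in KO against 25.9 and 60.5 in het. Plac8 was 2.27 and 2.93 against 8.26 and 20.5, and Synb, a syncytin that fuses trophoblast cells, was 3.12 and 4.40 against 7.18 and 24.4. Ascl2 overlapped between the groups, at 1.99 and 1.22 against 3.94 and 0.879. Some of the untested genes went the other way, chosen here after their values were seen. Plac1 was 1.97 and 0.706 in KO against 0.368 and 0.147 in het, Gcm1 was 0.659 and 0.489 against 0.321 and 0.319, and Peg10, listed in replicate 1 alone, was 122 against 61.0.

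Among other intermediate filament genes Krt42, a type I keratin, was 7.81 and 8.96 in KO and 32.3 and 27.6 in het, with a change of -1.75 ± 0.22 on the log2 scale (limma adjusted p of 0.354). That is opposite in sign to Krt7. Vim, the filament of mesenchymal cells, was 484 and 265 against 272 and 121, and the ranges overlapped. The nuclear lamins Lmnb1 and Lmna differed by 0.59 ± 0.28 and 0.48 ± 0.46. Of the 8 genes tested from this list of 15, 3 were higher and 5 lower, with none called and a median of -0.30. Chosen after their values were seen, Krt5 did not exceed 0.064 in the 9 libraries that list it and Krt14 did not exceed 0.978 in any, while Krt10 ran from 0.818 to 1.97 and Krt17 from 2.84 to 10.0 over the 12 libraries.

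The list of epithelial junctions and keratin linkers was nearly even, with 13 of 21 tested genes higher and 8 lower, none called and a median of 0.097. Epcam, an epithelial adhesion molecule, differed by 0.29 ± 0.24, Cldn4, a tight junction claudin, by 0.29 ± 0.31, Cdh1, E-cadherin, by -0.24 ± 0.23 and Jup, plakoglobin, by -0.43 ± 0.46, with limma adjusted p from 0.821 to 0.878.

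Of 16 markers of primitive and visceral endoderm 6 were tested, and all 6 were estimated higher in KO, with none called and a median of 1.04. Gata4, among those 6, was 1.95 and 2.11 in KO and under 1 in the other libraries fitted. It entered the test through the KO libraries alone, so its direction was fixed beforehand. The sum over all listed was 79.6 and 51.9 in KO against 46.0 and 26.5 in het. Of the 4 most abundant, Col4a1 was 19.3 and 11.7 against 8.14 and 3.09, Col4a2 differed by 1.40 ± 0.22 and Lama1 and Lamb1 by 0.41 ± 0.29 and 0.38 ± 0.31. In replicate 1, which lists them, Ttr and Afp were at 0. Among the untested markers, chosen after their values were seen, Amn was 0.573 and 0.190 in KO against 1.33 and 0.650 in het. In replicate 1 Cubn was 0.252 against 0.629, Hnf4a 0.312 against 0.503 and Sox17 0.470 against 0.480. The sum of primitive streak and mesoderm markers was 8.06 and 5.74 in KO against 5.16 and 4.16 in het, with T at 0.195 and 0.132 against 0.307 and 0.424. For fibroblast and smooth muscle markers it was 145 and 52.7 against 73.6 and 62.0. Fbn1 gave 44.6 of the 145 and 11.2 of the 73.6, and did not exceed 0.609 in replicate 2. The part of these cell types in the difference of the set was not tested.

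Whether SALL4A put back into KO cells shifts these genes was asked with KO plus mutant against Sall4 KO. Hand1 had the largest difference, lower in both mutant libraries, and Krt7, Krt8, Krt18 and Krt19 were also estimated lower. None of 11636 genes (0%) passed in limma, where the smallest adjusted p was 0.339. At an unadjusted p under 0.05 there were 591 genes higher (5.08%) and 546 lower (4.69%). The calls numbered 764 when KO plus mutant replicate 2 was left out and 282 when its replicate 1 was. The comparison shares the KO libraries with the one before, so a gene high in KO there tends to be low here, and the values are set side by side only. In replicate 1 its 2 sides also come from differently built tables, with 37883 entries for KO and 23234 for KO plus mutant. The term for replicate number does not remove that difference.

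Hand1 differed by -1.58 ± 0.21 (SE, n = 2 per group; limma adjusted p of 0.356). Its change was 0.99 in KO against het. The value without KO plus mutant replicate 2 was -1.62, with an adjusted p of 0.0476, and the adjusted p over the 6 fits that leave out 1 library ran from 0.0476 to 1.00. Krt7 differed by -0.92 ± 0.30 (limma adjusted p of 0.473), beside 1.12 in KO against het. Krt8, Krt18 and Krt19 differed by -0.87 ± 0.45, -0.64 ± 0.49 and -0.43 ± 0.32, with limma adjusted p of 0.571, 0.664 and 0.656, and the Krt18 value without Sall4 KO replicate 1 was 0.12. Eomes and Tfap2c differed by 0.12 ± 0.25 and 0.15 ± 0.32. With values as deposited these were -0.085 and -0.15, since the median of all genes in the mutant over KO pairs stands at a log2 of -0.28 and -0.29 before scaling.

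On scaled values 1 of the 7 members tested, Hand1, was lower in both mutant libraries than in both KO libraries, as were 21.7% of all genes, and 1, Eomes, was higher in both, as were 22.8%. The median of the 7 was -0.64 beside -0.022 over all genes tested. Id2 was 6.78 and 7.60 in KO plus mutant against 49.1 and 41.2 in KO, within a list of trophoblast regulators in which 5 of 11 were higher and 6 lower, with none called and a median of -0.22. Here 5 of the 6 tested endoderm genes were lower, with a median of -0.51 and sums of 42.4 and 37.0 against 79.6 and 51.9 in KO. Gata4, among those 5, and Tfap2a, among the 6 lower regulators, entered the test through the KO libraries alone. Their direction was thus fixed beforehand. The fibroblast and smooth muscle sum was 23.6 and 14.2 against 145 and 52.7. Fbn1 gave 44.6 of the 145, and was 0.487 and 0.148 with the mutant and 0.609 in KO replicate 2. The part of these cell types was not tested.

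Pair by pair, Krt8 and Krt18 passed 2-fold in replicate 1 and not in replicate 2, a difference that was not tested. Krt19 passed in neither, with a log2 ratio of -0.66 in replicate 1. In KO plus mutant over KO of replicate 1, 4 of the 6 members at 5 or more were at least 2-fold lower, at log2 ratios of -1.70 for Krt8, -1.68 for Hand1, -1.58 for Krt18 and -1.30 for Krt7. In that pair 13.3% of genes were 2-fold lower and 7.51% higher. Its 2 tables were built differently, with 37883 entries for Sall4 KO and 23234 for KO plus mutant. The bounds of Krt7 and Hand1 also differ between them. Add-back and type of table therefore cannot be told apart in this pair. With 5 added, Krt7 (-0.71) and Hand1 (-0.87) no longer passed. In replicate 2 none of the 4 passed 2-fold, with Krt8 at -0.078, Krt18 at 0.25 and Krt19 at -0.25, against 2.06% of genes lower and 14.5% higher. Hand1 and Krt7, under 5 there, were at -1.48 and -0.56.

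KO plus WT, which has no second library, was read against the same Sall4 KO replicate 1. Its table, with 23234 entries, was also built differently from that of Sall4 KO. Add-back and type of table cannot be told apart here either. Again Hand1 (-2.27), Krt7 (-1.71), Krt18 (-1.597) and Krt8 (-1.596) were at least 2-fold lower, 4 of 6 members at 5 or more, where 14.1% of genes were lower and 8.55% higher. Cdx2, under 5 in both libraries, was at -1.53, and at -1.48 with the mutant. KO plus WT and KO plus mutant replicate 1 stood at 16.8 and 15.0 for Krt8, 17.1 and 16.8 for Krt18, 13.0 and 12.7 for Krt19, and 1.20 and 1.83 for Krt7. The wild-type and mutant SALL4A lines were not tested against one another, with 1 wild-type library.

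Set against Sall4 het instead, KO plus mutant again gave 0 calls among 11636 genes (0%), with a smallest limma adjusted p of 0.195. At an unadjusted p under 0.05, 560 genes were higher (4.81%) and 666 lower (5.72%). Here too the replicate 1 tables of the 2 sides were built differently. There were 655 calls without KO plus mutant replicate 2 and 203 without its replicate 1. Hand1 differed by -0.59 ± 0.21 and Krt19 by -0.92 ± 0.32, both with a limma adjusted p of 0.464. Krt8, Krt18, Krt7, Eomes and Tfap2c differed by -0.67 ± 0.45, -0.41 ± 0.49, 0.20 ± 0.30, 0.52 ± 0.25 and 0.41 ± 0.32. Without KO plus mutant replicate 1 the Krt18 value was 0.19, and without Sall4 het replicate 1 that of Krt7 was -0.047. Eomes was higher in both mutant libraries than in both het libraries and Krt8 lower in both, 1 of 7 each, as were 18.2% and 18.1% of all genes.

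The DKO and its wild-type control, which ask about loss of both SALL1 and SALL4, had the largest differences of the set on the log2(scaled value + 1) scale, and these were in Krt18 and Krt8. Between 1 DKO library and 1 control library there is no replicate check and no test. Krt18 was 16.3 times its control value (log2 ratio 3.78) and Krt8 was 13.3 times (3.51), while Krt19 was 2.17 times (1.05, or 0.80 with 5 added) and Krt7 1.39 times (0.43). Of the 5 members at 5 or more 3 were at least 2-fold higher, where 4.83% of 8621 genes were and 3.67% were 2-fold lower. Krt18 and Krt8 lay at the 99.6 percentile of the log2 ratios of those genes. The control had the lowest Krt8 and Krt18 outside TT2, while the DKO values were close to those of Sall4 KO replicate 1 at 62.0 and 63.2.

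**Figure D4:**
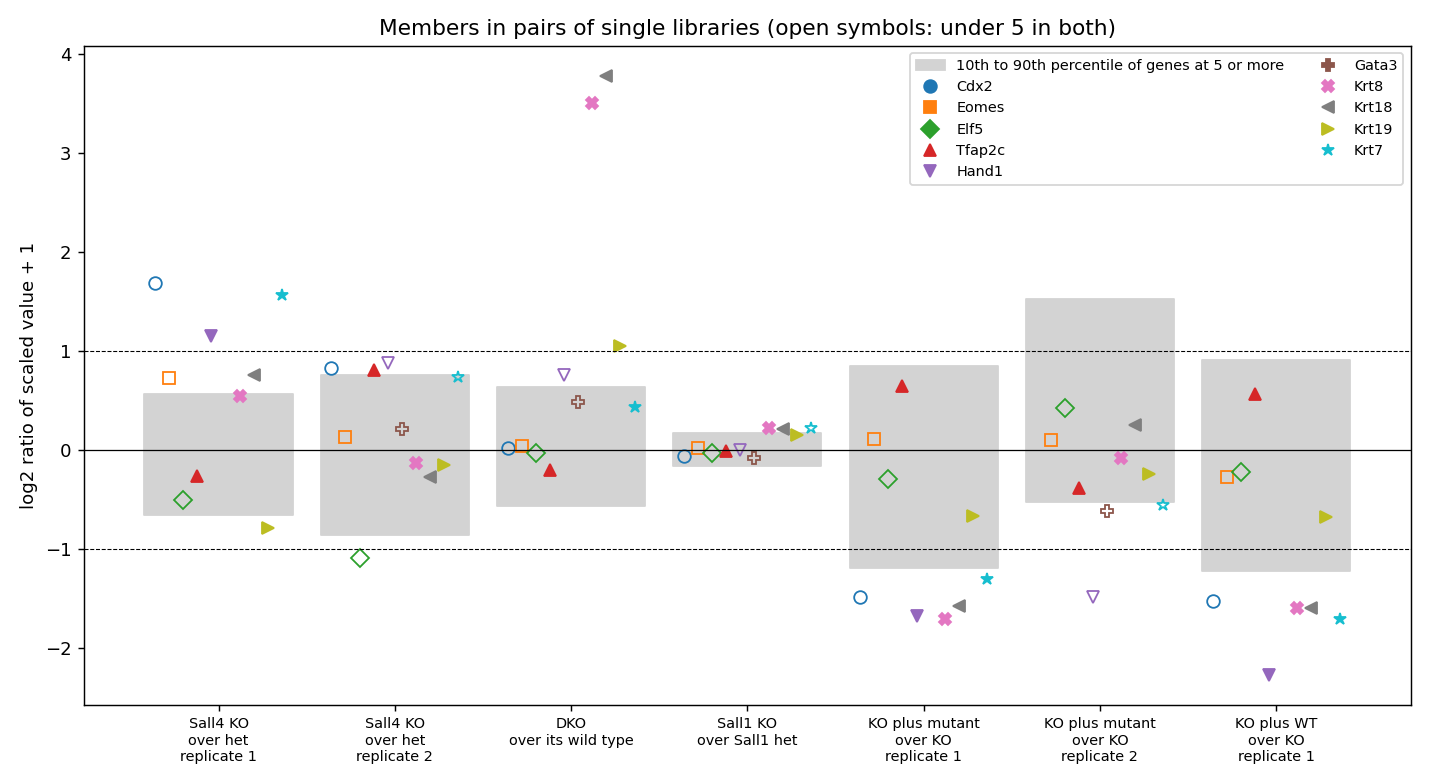
Log2 ratio of each gene of the set in the 7 pairs of single libraries, scaled by the pair's median ratio with 1 added; filled symbols reached 5 in a library of the pair, open symbols did not, grey boxes span the 10th to 90th percentile of genes that did, dashed lines mark 2-fold, and the joined Gata3 entry is not drawn. Krt18 (3.78) and Krt8 (3.51) in the DKO stand above all other points, and all points of the Sall1 pair lie near 0.

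Among the transcription factors of the set, Cdx2 and Elf5 were near 0 in both libraries, Eomes had a log2 ratio of 0.043 and Tfap2c of -0.20. By the deposited values Hand1 in the DKO was 8.01 times its control and Gata3 2.76 times, with both genes under 1 in either library. With 1 added, their log2 ratios were 0.76 and 0.48. Among other trophoblast regulators at 5 or more, 3 of 8 were at least 2-fold higher (Id2, Sox21 and Sox15) and 1 lower (Tead4, 2.76 against 9.32, a factor that acts upstream of Cdx2). Of the placental genes at 5 or more 2 of 4 were higher, Plac1 at 5.86 against 0.0940 and Peg10 at 33.7 against 3.11, and Phlda2 was lower, at 4.65 against 29.1. These named genes, other than Id2 and Phlda2, were chosen after their values were seen.

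Of 16 epithelial junction genes at 5 or more, 8 were at least 2-fold higher in the DKO, beside 4.83% of all genes, and the other 8 did not pass 2-fold either way. The median log2 ratio was 0.97 beside -0.0087 over all genes, from 1 library each and without a test. Epcam was 259 against 40.9, Cldn4 118 against 74.2 and Jup 20.5 against 15.4. Cdh1 was 50.6 against 63.0 and, chosen after their values were seen, Tjp1 was 9.09 against 12.6 and Dsg2 7.56 against 11.6. Chosen after its values were seen, Esrp1, an epithelial splicing factor, was 11.4 against 0.531 and was between 13.7 and 24.3 in the Sall4 and Sall1 lines. In wild-type TT2 it was 0.753, near the DKO control. The other 6 past 2-fold were Cldn6, Cldn7, Tjp3, Crb3, Pkp2 and Pkp3. Krt42 was again opposite, at 4.41 against 32.6.

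Markers of fibroblasts were high in both libraries of this pair. Their sum was 418 in the DKO and 422 in the control, against 14.2 to 145 in the Sall4 lines, 217 in Sall1 het, 207 in Sall1 KO and 5.95 in TT2. Col1a1, the main fibril collagen, was 103 and 97.9 in the DKO and its control. Vim was 146 and 172. Endoderm markers summed to 53.4 and 47.5. The part of other cells in the keratin difference was not tested.

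The Sall1 pair, which asks about loss of SALL1 alone, differed little. In Sall1 KO over Sall1 het none of the 4 members at 5 or more passed 2-fold, where 0.624% of 8173 genes were higher and 0.722% lower. The log2 ratios of Krt8, Krt18, Krt19 and Krt7 were 0.22, 0.21, 0.15 and 0.23, and that of Tfap2c was -0.012. Since ratios in this pair were tightly spread, Krt8 and Krt18 still lay at the 93.8 and 93.3 percentile of them. No listed trophoblast, filament or junction gene at 5 or more passed 2-fold in this pair. Sall1 RNA itself was 13.3 in the library labelled KO against 21.8 in het. Whether this pair differs from the DKO pair was not tested, with 1 library each.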

How the data were processed

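RNA was measured in 12 libraries. The authors' deposited FPKM values cover 9 tables and the deposited RPKM values 3, per the file headers. Per the submitters' processing notes the series used TopHat, Bowtie 0.12.7, SAMtools and MACS 1.4.2 with build mm9; the sources used here do not say which of them made a given table. The other 68 samples were not analysed here. Sums of values ran from 835259 to 7359936, and the 10 highest entries held 10.2% to 79.8% of a sum. Replicate 1 of Sall4 het and KO listed 37883 entries, and KO plus WT and replicate 1 of KO plus mutant 23234. Replicate 2 listed 19049 for het and KO and 20223 for KO plus mutant. TT2 is at transcript level, with 99.3% of gene identifiers matched to RefSeq GRCm38.p6 names, and 18 symbols of 1 table were set by identifier.

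For the Sall4 het, KO and KO plus mutant libraries, median-ratio scaling used the genes whose value was at least 1 in all 6, and log2(value + 1) was fitted with limma 3.58.1 in R 4.3.3 (group and replicate number, eBayes with trend) for genes with a value of at least 1 in 2 or more libraries. Tests are two-sided, with Benjamini-Hochberg adjustment at 0.05 in each comparison over all genes tested. Fold changes on this scale understate low genes. The replicate number is in the fit because unit and strain label differ with it; deviations of same-numbered libraries correlated at 0.578 (het and KO), 0.104 (het and mutant) and 0.063 (KO and mutant). Pairs of single libraries have log2 ratios with the same scaling and added 1, for genes that reach 5 in either library, with 2-fold as the limit. Scripts ran in Python 3.11.15 with numpy 2.4.6, pandas 2.3.3 and matplotlib 3.10.9 and were checked on simulated data.

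The members and lists were chosen with earlier results of these data known. All 10 members are named, at most 4 genes of each other list (the highest means over the 6 fitted libraries), and the 5 genes with the highest Pearson r to each member at 5 or more, over 11 libraries. Predicted genes, clone names and pseudogenes were left out of the last. Genes outside this rule, in the list results and the checks of other cell types (such as Tfap2a, Tead4, Sox21, Plac1, Peg10, Gcm1, Esrp1, Tjp1, Dsg2, Krt5, Krt17, Ttr, Afp and Amn), were named after their values were seen.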

Additional observations from a re-analysis of the deposited data

How the results depend on the processing

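The 3 counts of genes past the adjusted threshold were 0, and in the fit with no replicate block, without the term for replicate number, each was again 0. The count for KO plus mutant against het was 1 with a pseudocount of 0.1 and 1 with upper-quartile scaling. Leaving out 1 library gave 0 to 764 genes for KO plus mutant against KO, 0 to 655 for KO plus mutant against het and 0 to 0 for KO against het; the high counts came without KO plus mutant replicate 2 (764 and 655) and without replicate 1 (282 and 203), which assumes that the remaining mutant library varies as the other groups do, and the cause was not tested. Of 361 alternative values of the members' log2 changes, 345 kept their direction and side of the threshold, 15 turned sign and 1 passed the threshold. Reversed by setting were Eomes in KO plus mutant against KO (-0.085 as deposited, -0.19 with quantile normalization), Tfap2c there (-0.15 as deposited) and Krt7 in KO plus mutant against het (-0.11 with quantile normalization). Leaving out 1 library gave these ranges over fits in which a sign turned: KO against het, Krt8 -0.43 to 0.81, Krt18 -0.53 to 0.99 and Tfap2c -0.23 to 0.73; KO plus mutant against KO, Krt18 -1.40 to 0.12, Tfap2c -0.33 to 0.64 and Eomes -0.069 to 0.29; KO plus mutant against het, Krt18 -1.08 to 0.19 and Krt7 -0.047 to 0.43. In the single pairs, a pseudocount of 5 gave 0 members 2-fold higher in KO over het replicate 1 and 2 lower in KO plus mutant over KO replicate 1, and a filter at 1 gave 1 lower in KO over het replicate 2 (Elf5) and 1 in KO plus mutant over KO replicate 2 (Hand1). That filter also admitted Cdx2, which was past 2-fold in the pairs with Sall4 KO replicate 1. Its log2 ratios were 1.69 for KO over het, -1.48 for KO plus mutant over KO and -1.53 for KO plus WT over KO. The cause of each was not tested, beyond the greater damping of low genes that a higher pseudocount brings by construction. Depth is unknown, so low levels such as those of Cdx2, Elf5 and Gata3 carry no counting error.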
